A study of Mus musculus with 18 samples.

Results

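The MYC, MAX and MXD network was described through 10 genes, Myc, Mycn, Mycl, Max, Mxd1, Mxd3, Mxd4, Mxi1, Mnt and Mlx, of the 46603 genes listed for each of 18 mouse lung cultures. The genes were chosen by name, as the proto-oncogenes of the MYC family, their partner MAX, the antagonists that compete for MAX, and MLX, and not by any measured value. All 10 passed the filter on low counts in each of the 6 comparisons. RNA sequencing had been carried out on 10 organoid cultures before transplantation and on 8 tumoroid cultures, in a study that asked which lung cells give rise to EGFR-driven tumors.

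The mice that gave the sorted lung cells and the autochthonous tumor carried 1 changed allele of the Col1a1 locus. It held a human EGFR gene with the T790M and L858R mutations, behind the CAG promoter and a loxP-flanked stop cassette. The genotype of the support cells grown with the sorted cells is not given in the sources used here. The allele stays silent until Cre is delivered, so the Ad-GFP cultures, which received an adenovirus with green fluorescent protein, held it in the silent state. Tracheal cells had been sorted as NGFR-negative (club) or NGFR-positive (basal), and distal lung cells as Sca1-negative (alveolar type 2, AT2) or Sca1-positive (bronchioalveolar stem cells, BASCs), and each of these 4 populations gave 1 Ad-GFP and 1 Ad-Cre culture. A further pair of Ad-Cre cultures held BASCs that had grown with alveolar or with bronchiolar features. Of the tumoroids, 7 were grown from tumors in nude mice that had received Ad-Cre organoid cells through the trachea (3 of AT2, 3 of mixed BASC and 1 of bronchiolar BASC origin), and 1 came from an autochthonous tumor of a mouse that had itself been given Ad-Cre. The study's methods call the mice given Ad-Cre adult, and other ages and the strain background are not given in the sources used here.

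Each organoid condition was a single culture, so cultures of different populations or viruses stand in for replicates, and p-values measure the spread between these cultures. Each sorted population had been split between the viruses, and the alveolar, bronchiolar and mixed BASC cultures had been separated by their appearance while BASC organoids were passaged. Cultures that may trace to 1 isolate thus count as separate samples, both within and across the lineage groups. Labels of 2 AT2 tumoroids share a number, as do those of 2 mixed BASC tumoroids and the bronchiolar tumoroid, without saying whether these came from the same mouse. All organoids were sequenced from TruSeq libraries on a HiSeq and all tumoroids from BGI libraries on a DNBSEQ machine, so transplantation and platform cannot be told apart.

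The organoid libraries held 27772660 to 97191624 expected counts each and the tumoroid libraries 15327265 to 23355938. Sftpc, the surfactant gene that defines AT2 cells, stood at 26700 to 28900 CPM (expected counts scaled by library size and TMM factors over all 18 samples) in the 3 alveolar organoid cultures and at 1.33 to 27.0 CPM in the 4 tracheal ones. In the club cultures the club cell gene Scgb1a1 was at 2.57 and 4.42 CPM, while the basal cell genes Krt5 (2400 and 2340 CPM) and Ngfr (98.2 and 98.7 CPM) were as high as in the basal cultures (2130 and 1870 CPM, 96.4 and 89.3 CPM). Other club cell genes were not low in the 4 tracheal cultures. Cyp2f2 was at 1850 to 3010 CPM in them, Scgb3a2 at 456 to 775 CPM and Scgb3a1 at 234 to 787 CPM. The AT2 tumoroids were labelled as of AT2 origin and also as sorted NGFR-negative, and Sftpc was at 9840 to 65500 CPM in them. The cultures were grown with support cells that the labels describe as mesenchymal and endothelial. The summed level of 6 fibroblast markers ran from 538 to 10300 CPM, highest in AT2 tumoroid 3, whereas 4 endothelial markers summed to at most 8.27 CPM and 4 immune markers to at most 65.5 CPM.

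MYC, MYCN and MYCL are basic helix-loop-helix leucine zipper transcription factors that bind DNA only as dimers with MAX, at E-box sequences, and raise the transcription of genes for ribosome biogenesis, nucleotide synthesis and cell growth. MXD1, MXI1, MXD3, MXD4 and MNT also pair with MAX at E-boxes but bring SIN3 corepressors, while MLX pairs with MNT, MXD1, MXD4 and the glucose-responsive MLXIP and MLXIPL. In the lung, MYCN is known from embryonic epithelial progenitors and MYCL was first found amplified in small cell lung cancer.

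Some members hold the E-box in their own promoters. In the RefSeq promoter table (GRCm38.p6, 250 bases before to 50 bases after each start site), 9 of the 10 members, all but Myc, had an entry, and Mxi1 had 3. The E-box CACGTG, which reads the same on both strands, was found in 4 of these 11 promoters, 1 each for 4 of the 9 genes, and in 7.15% of all 32851 promoters. The matches are descriptions of sequence and not measured binding sites. They are shown with 20 bases on each side, 5′ to 3′ on the strand of the gene, with the E-box in capitals, because they mark which genes of the network hold its own recognition sequence at their start.
Max: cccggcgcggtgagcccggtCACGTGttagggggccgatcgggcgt
Mxd4: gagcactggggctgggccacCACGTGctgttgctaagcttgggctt
Mnt: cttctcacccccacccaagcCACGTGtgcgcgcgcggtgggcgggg
Mlx: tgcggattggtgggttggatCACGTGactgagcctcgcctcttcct
The Max window is chr12:76962226-76962271 on the minus strand, with the first base of the E-box at position -3 from the start site. The Mxd4 window is chr5:34187904-34187949 (minus strand, -219), the Mnt window chr11:74830781-74830826 (plus strand, -123) and the Mlx window chr11:101087230-101087275 (plus strand, -40). Among these 4 genes are the partner shared by all MYC and MXD proteins, an MXD protein, MNT, and MLX.

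Across the 18 cultures Mycn and Mycl varied far more than the other members, while Myc was close to Mxd3. The SD of log2 CPM was 2.43 for Mycn, 1.88 for Mycl and 0.917 for Myc, with 96.0%, 91.8% and 60.6% of genes below them. The median SD was 0.729 over the 20104 genes that the filter on low counts kept over all 18 cultures. The highest level exceeded the lowest 243-fold for Mycn, 50.5-fold for Mycl and 9.30-fold for Myc. Mnt (SD 0.28), Mlx (0.328) and Max (0.341) were the steadiest members, with 11.8%, 17.6% and 19.2% of genes below them in SD. Mxd3 (0.881), Mxd4 (0.686), Mxi1 (0.549) and Mxd1 (0.529) lay between.

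Myc (chr15:61985391-61990374, plus strand, GRCm38), the paralog with the broadest known expression, was measured at 52.8, 53.0, 60.7 and 56.9 CPM in the club Ad-GFP, club Ad-Cre, basal Ad-GFP and basal Ad-Cre cultures. The AT2 Ad-GFP, AT2 Ad-Cre and alveolar BASC Ad-Cre cultures had 17.9, 14.6 and 17.6 CPM. In the mixed BASC Ad-GFP, mixed BASC Ad-Cre and bronchiolar BASC Ad-Cre cultures it stood at 48.6, 70.2 and 85.7 CPM. All 3 alveolar cultures lay below every other culture of the study. In the tumoroids the levels were 93.1, 57.2 and 63.2 CPM for AT2 origin, 76.3, 51.5 and 127 CPM for mixed BASC origin, 136 CPM for the bronchiolar tumoroid and 101 CPM for the autochthonous one. No tumoroid of AT2 origin was as low as the AT2 organoids.

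Mycn (chr12:12936093-12941914, minus strand), a paralog of restricted expression, was close to the limit of detection in the trachea, where 0.236, 0.169, 0.241 and 0.240 CPM rested on 7, 6, 12 and 13 counts in the order given above. The alveolar cultures had 3.24, 5.97 and 7.84 CPM. Mixed BASC Ad-GFP organoids, with 0.195 CPM, were within the tracheal range, while mixed BASC Ad-Cre and bronchiolar BASC Ad-Cre organoids had 2.18 and 2.44 CPM. The tumoroids were the most uneven set, with 12.7, 21.4 and 1.37 CPM in those of AT2 origin and 13.9, 2.89 and 41 CPM in those of mixed BASC origin. The bronchiolar tumoroid (2.50 CPM) and the autochthonous one (11.6 CPM) fell inside that range. AT2 tumoroid 3, the lowest of the tumoroids for Mycn, was also the one with the highest fibroblast marker sum, whose part in the value was not tested.

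Mycl (chr4:122995652-123002485, plus strand), the paralog linked to neuroendocrine lung tumors, was measured in the tracheal cultures at 136, 124, 151 and 117 CPM. In the alveolar cultures it was at 3.24, 7.59 and 13.4 CPM. The BASC cultures split, with 164 CPM in mixed BASC Ad-GFP organoids and 51.7 and 38.4 CPM in the mixed and bronchiolar Ad-Cre organoids. AT2 tumoroids had 6.48, 10.9 and 6.78 CPM, mixed BASC tumoroids 9.14, 28.2 and 28.4 CPM, the bronchiolar tumoroid 45.9 CPM and the autochthonous tumoroid 5.93 CPM. The highest Mycl and the lowest Mycn of the organoids were in the same 5 cultures, the tracheal ones and mixed BASC Ad-GFP. Within the 3 alveolar cultures both genes were lowest in AT2 Ad-GFP and highest in alveolar BASC Ad-Cre organoids.

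**Figure D1:**
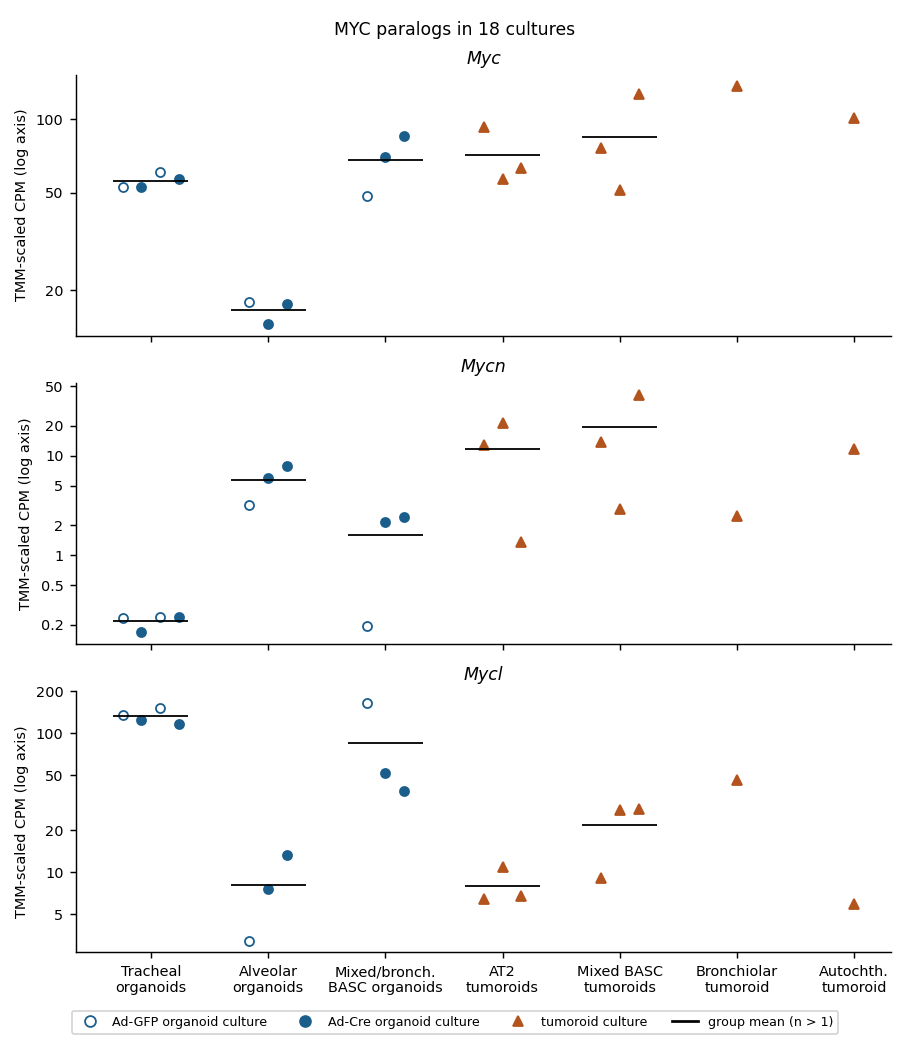
TMM-scaled CPM (log axes) of Myc, Mycn and Mycl in each culture, by group. Open circles are Ad-GFP organoids, filled circles Ad-Cre organoids, triangles tumoroids, and bars group means. The 3 alveolar organoid cultures are the lowest for Myc (14.6 to 17.9 CPM), and the tracheal cultures are the lowest group for Mycn and, with mixed BASC Ad-GFP organoids, the highest for Mycl.

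Levels of different genes were set side by side only in TPM, RSEM's length-scaled unit. In the 4 tracheal cultures Mycl made up 54.3 to 59.7% of the summed TPM of the MYC paralogs, Myc 40.2 to 45.5% and Mycn 0.104 to 0.143%. In the alveolar organoids Myc was the leading paralog, at 57.6 to 80.9%, with Mycn at 10.3 to 18.7% and Mycl at 8.83 to 24.3%. Mixed BASC Ad-GFP organoids were like the tracheal cultures in this, with Mycl at 66.1%, while Myc led in the mixed (69.6%) and bronchiolar (78.1%) BASC Ad-Cre organoids. Myc was the leading paralog in all 8 tumoroids, at 73.6 to 92.8% of the sum. These shares are descriptions of single cultures and were not tested.

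The summed TPM of the MYC paralogs was 115 to 133 in the trachea, 20.2 to 26.7 in alveolar organoids, 92.8 to 136 in the other BASC organoids and 65.7 to 167 in the tumoroids. The summed TPM of Mxd1, Mxd3, Mxd4, Mxi1 and Mnt moved much less, from 98.6 to 153 over all 18 cultures. Antagonist transcripts were therefore 0.981 to 1.14 times the MYC sum in the trachea, 4.44 to 6.25 times in alveolar organoids, 0.786 to 1.2 times in the other BASC organoids and 0.620 to 2.11 times in the tumoroids. Max, at 43.8 to 92.9 TPM, was below the MYC sum in all tracheal cultures (0.332 to 0.387 times) and above it in the alveolar organoids (2.16 to 2.71 times). Transcript sums of this kind say nothing of protein levels or of dimers formed. In bulk RNA, fewer cells of a type and less RNA per cell cannot be told apart.

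**Figure D2:**
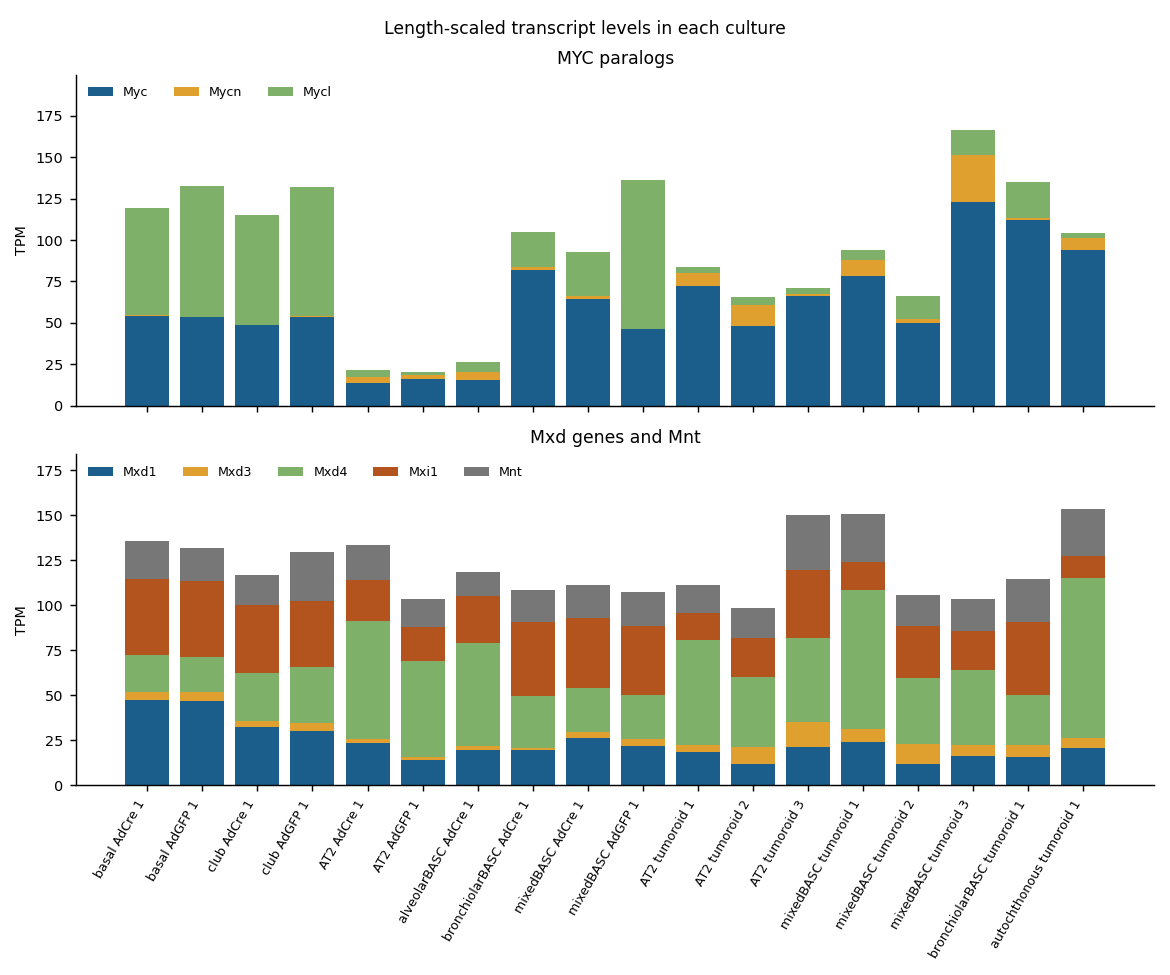
TPM of the MYC paralogs (top) and of the Mxd genes and Mnt (bottom) in each of the 18 cultures, stacked by gene. The MYC sum is 20.2 to 26.7 TPM in the 3 alveolar organoid cultures and 65.7 TPM or more in all others, while the antagonist sum stays between 98.6 and 153 TPM.

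The lineage comparisons asked how the network differs between organoids of the trachea and of the distal lung, and joined the 10 organoid cultures in 1 fit with 3 groups. Between alveolar and tracheal organoids, 9 of the 10 members passed edgeR's quasi-likelihood test, 4 higher and 5 lower in the alveolar cultures. This comparison called 60.9% of the 18754 genes tested, so a call in itself sets a gene little apart. Myc was 3.25-fold lower in alveolar organoids (log2 fold change -1.70, SE 0.171, edgeR adjusted p = 2.95e-05), and the groups did not overlap. Mycl was 16.0-fold lower (-4.00, SE 0.633, edgeR adjusted p = 0.000482) and Mycn 26.0-fold higher (4.70, SE 0.723, edgeR adjusted p = 0.000408), again with no overlap. The 3 paralogs thus differed most in size of all the members, and not in 1 direction.

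Among the antagonists, Mxd4 (chr5:34173883-34187720, minus strand), a MAX partner known from differentiating cells, was at 120, 139 and 113 CPM in the alveolar cultures and at 38.8 to 56.0 CPM in the tracheal ones. Its level was 2.75-fold higher in alveolar organoids (log2 1.46, SE 0.135, edgeR adjusted p = 1.8e-05). Mxd1 (chr6:86647042-86669161, minus strand), which is induced as many epithelia differentiate, was at 74.0, 86.7, 123 and 120 CPM in the trachea and at 38.1, 62.4 and 57.9 CPM in alveolar organoids, a 1.86-fold lower level (log2 -0.90, edgeR adjusted p = 0.00786). Mxi1 (chr19:53310518-53375810, plus strand), also called MXD2, was 1.60-fold lower (log2 -0.68, edgeR adjusted p = 0.000905), at 57.6 to 82.2 against 102 to 126 CPM. The members of the MXD family thus split, Mxd4 being higher and Mxd1, Mxd3 and Mxi1 lower in the alveolar cultures, and none of these groups overlapped. How many of all genes separate in this way was not counted, and 60.9% of the genes tested were called.

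Mxd3 (chr13:55325168-55329823, minus strand), the member of its family known from S phase cells, had the lowest share of the antagonist TPM in every culture, and was at 1.45 to 1.62 CPM in alveolar and 2.59 to 3.37 CPM in tracheal organoids. Its 1.93-fold lower level (log2 -0.95, edgeR adjusted p = 0.0198) was no longer called without AT2 Ad-GFP (adjusted p = 0.0649) or without AT2 Ad-Cre organoids (0.0637). Of 14 proliferation genes 10 were called lower in the same comparison, which called 60.9% of all genes tested. The sums of the 14 genes were 306 to 395 CPM in alveolar and 488 to 638 CPM in tracheal organoids. The part of these genes in the Mxd3 difference was not tested. The partners Max (chr12:76937269-76962201, minus strand) and Mlx (chr11:101087277-101092207, plus strand) were 1.37-fold and 1.56-fold higher (log2 0.45 and 0.65, edgeR adjusted p = 0.000742 and 0.00154). Max was at 63.7 to 70.7 CPM in alveolar and 46.0 to 55.5 CPM in tracheal organoids, and Mlx at 37.9 to 53.5 against 27.3 to 31.0 CPM. Mnt (chr11:74830920-74845725, plus strand), the ubiquitous MAX-binding repressor, was the member that did not pass (log2 -0.23, 95% interval -0.53 to 0.06, edgeR adjusted p = 0.147), with 39.3 to 50.8 CPM overlapping 44.8 to 65.5 CPM.

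Fibroblast marker sums also differed along this comparison, at 4200 to 7610 CPM in alveolar and 2050 to 2200 CPM in tracheal organoids. Of these markers 6 of 6 were called higher, where 60.9% of all genes were called, and their part in the members' differences was not tested. Reads were not stated to be counted by strand. Exons of Mxd3, Mxd4, Mxi1 and Mlx overlap those of a gene on the opposite strand over 4.43%, 6.06%, 2.84% and 19.3% of their exonic bases, and a share of their counts may belong to that gene. Of these genes Prelid1, which overlaps Mxd3, was at 138 to 324 CPM and Psmc3ip, which overlaps Mlx, at 2.19 to 11.8 CPM.

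**Figure D3:**
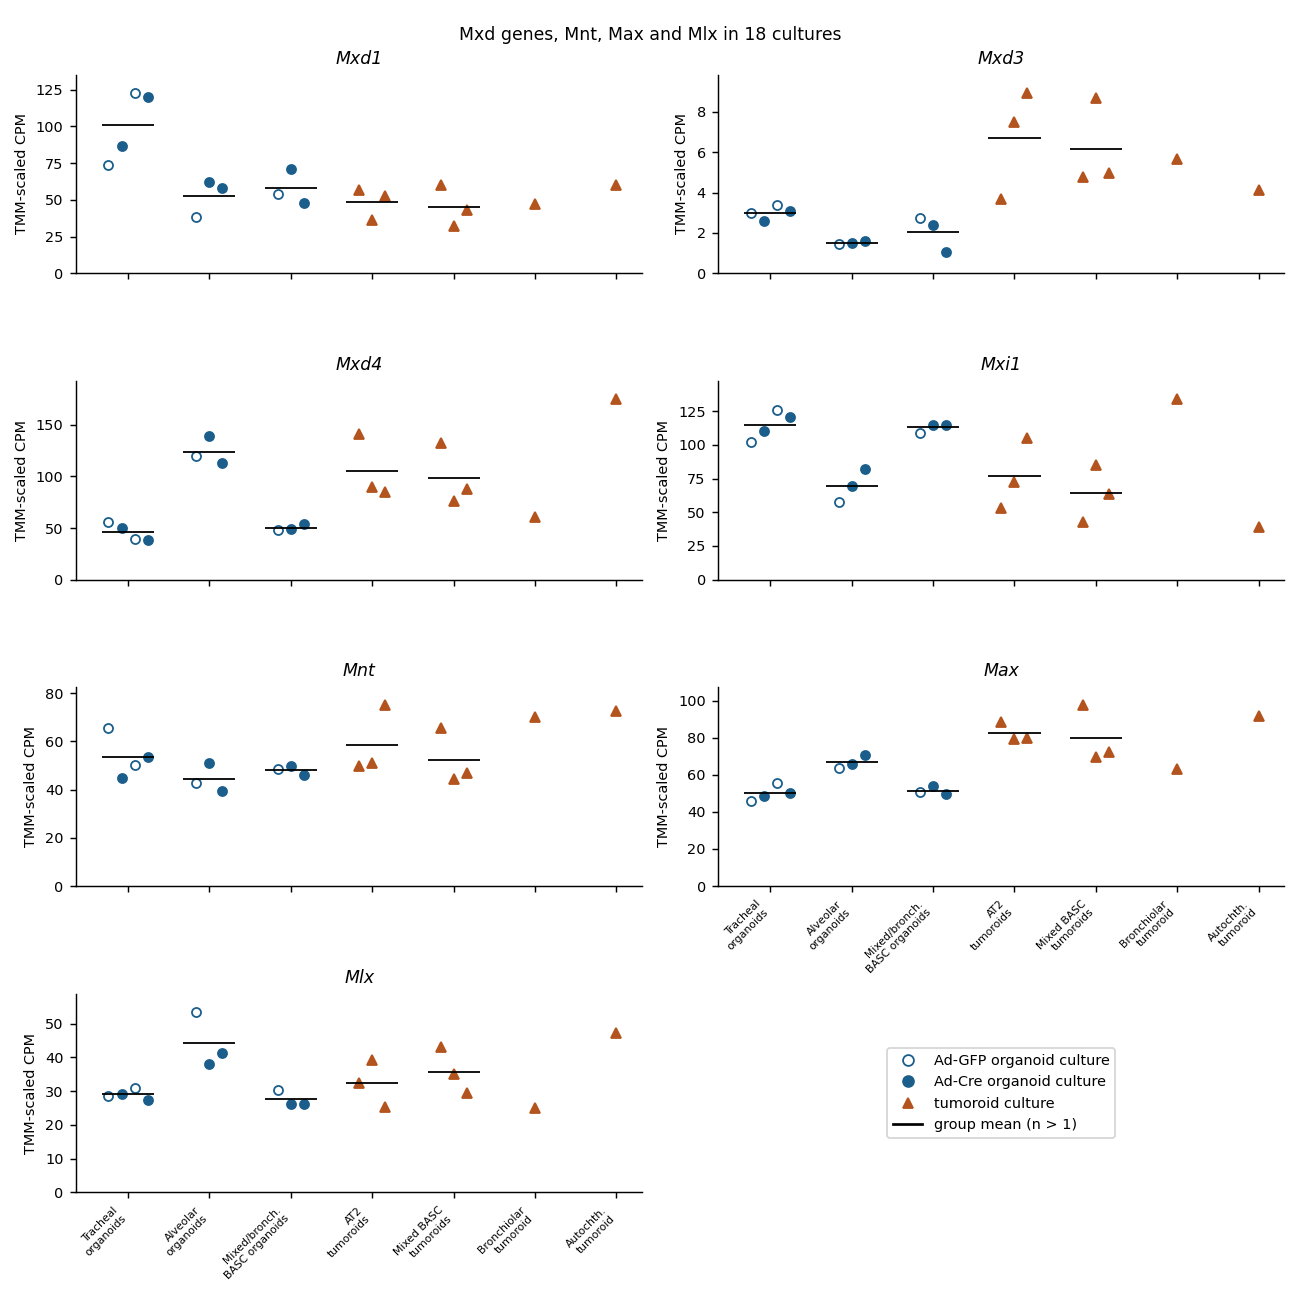
TMM-scaled CPM (linear axes from 0) of Mxd1, Mxd3, Mxd4, Mxi1, Mnt, Max and Mlx in each culture, with symbols as in the plot of the MYC paralogs. Mxd4 is at 113 to 139 CPM in alveolar organoids against 38.8 to 56.0 CPM in tracheal ones, and Mxd3 is at 3.70 CPM or more in all tumoroids from transplants against 2.37 CPM or less in the distal Ad-Cre organoids.

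Mixed and bronchiolar BASC organoids set against alveolar ones gave 7 called members, where 53.1% of all genes tested were called. Myc was 3.92-fold higher (log2 1.97, SE 0.180, edgeR adjusted p = 3.3e-05) and Mycl 10.2-fold higher (3.35, SE 0.629, edgeR adjusted p = 0.00177) in these BASC cultures. Mxd4 was 2.55-fold lower (log2 -1.35, edgeR adjusted p = 8.09e-05), Mlx 1.66-fold lower (-0.73, 0.00154) and Max 1.35-fold lower (-0.44, 0.00186), while Mxi1 was 1.56-fold higher (0.64, 0.00222). The groups did not overlap for any of these 6, and the share of all genes that separate in this way was not counted. The lower Mycn (log2 -1.89, edgeR adjusted p = 0.0413) was the least certain call although the groups, at 0.195 to 2.44 and 3.24 to 7.84 CPM, did not overlap: the adjusted p was 0.119 with only these lineages in the fit and above 0.05 in 7 of the 10 fits that left out a culture. Mxd1, Mxd3 (log2 0.39, adjusted p = 0.325) and Mnt did not pass. Without bronchiolar BASC Ad-Cre organoids Mxd3 was called (log2 0.70, adjusted p = 0.0143). Of 6 fibroblast markers 3 were called lower in these BASC cultures and none higher, at sums of 1960 to 4420 against 4200 to 7610 CPM. Of the 14 proliferation genes 8 were called higher and none lower, at sums of 457 to 631 against 306 to 395 CPM, and the part of neither list in the members' differences was tested. The alveolar cultures are shared with the comparison before this one, so the 2 sets of folds are not independent.

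Against tracheal organoids, none of the 10 members passed in mixed and bronchiolar BASC organoids, in a comparison that called 1.45% of all genes. Mycn came closest (log2 2.81, 95% interval 1.23 to 4.39, edgeR adjusted p = 0.0807), followed by Mxd1 (-0.82, 95% interval -1.34 to -0.30, adjusted p = 0.109). Both passed with DESeq2, at adjusted p = 0.00171 and 0.0182. Without mixed BASC Ad-GFP organoids, the culture with Mycn in the tracheal range, edgeR called Mycn (3.33, adjusted p = 0.000868), Mycl (-1.58, 0.0352, from -0.65 with it) and Myc (0.45, 0.0252, from 0.27 with it), and the count over all genes changed from 272 to 3929. That fit leaves only Ad-Cre cultures on the BASC side, against tracheal cultures of both viruses, so lineage and virus are partly mixed in it. The culture left out had the lowest Myc and Mycn and the highest Mycl of its group, so these calls are no independent support. With all cultures in the fit, the other differences lay within -0.56 for Mxd3 and 0.11 for Mxd4 on the log2 scale.

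**Figure D4:**
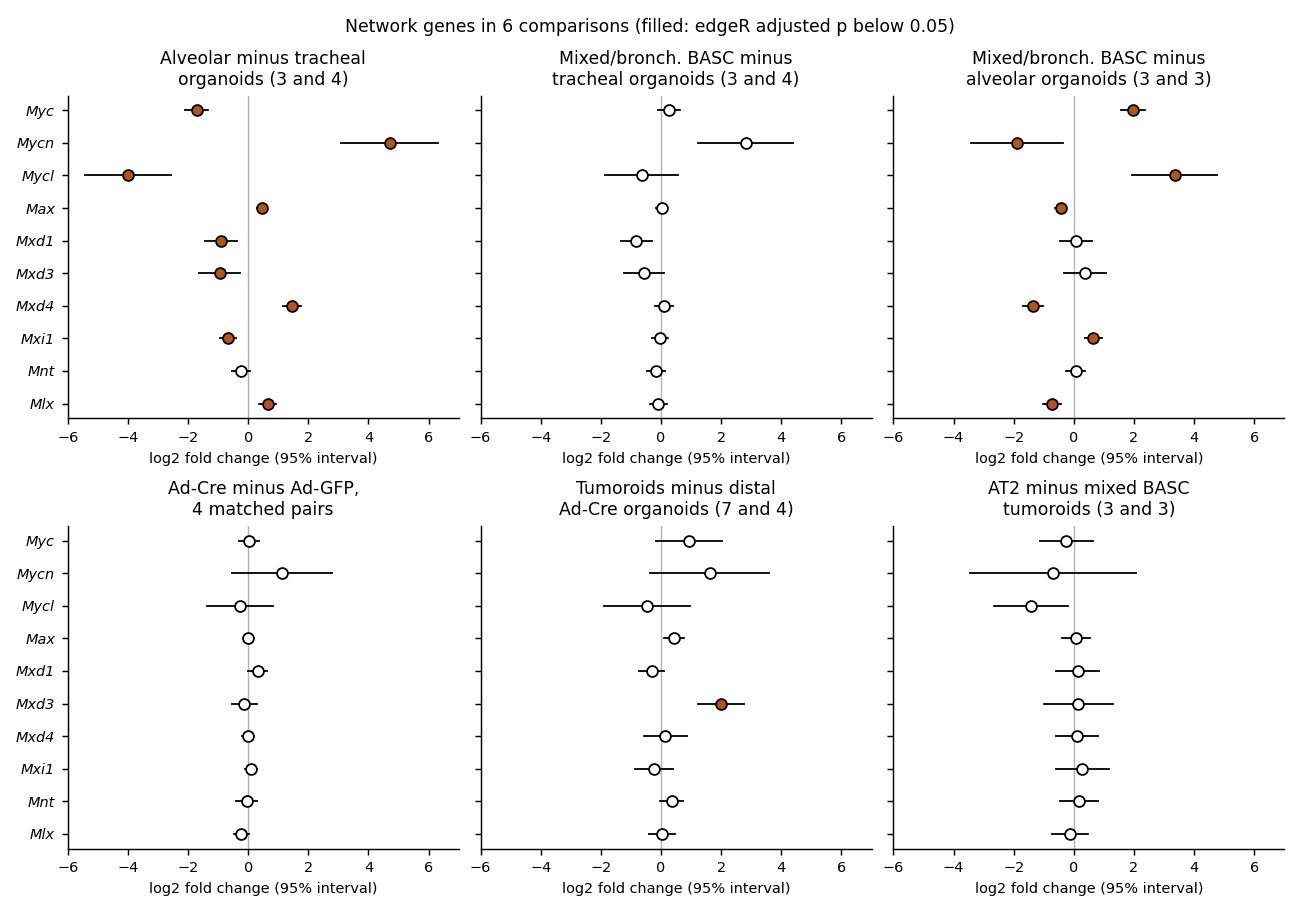
Log2 fold change of the 10 members, with the 95% interval, in the 6 comparisons, from edgeR's quasi-likelihood test. Filled points have an adjusted p below 0.05. There are 9, 0 and 7 filled points in the lineage comparisons, 0 between the viruses, 1 (Mxd3) between tumoroids and organoids and 0 between tumoroid origins.

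The comparison of Ad-Cre with Ad-GFP organoids asked what activation of the mutant EGFR in culture does, and was fitted over 4 matched pairs with the cell population as a block. None of the 10 members passed, and over all 17749 genes edgeR called 0 genes (0%), with 350 at an unadjusted p below 0.05 and 5 called by DESeq2. The pairs varied for Mycn. It was 0.236 and 0.169 CPM without and with Cre in club, 0.241 and 0.240 CPM in basal, 3.24 and 5.97 CPM in AT2 and 0.195 and 2.18 CPM in mixed BASC organoids (log2 fold change 1.13 over all pairs, 95% interval -0.52 to 2.79, edgeR adjusted p = 0.994). Both distal pairs were higher with Cre and neither tracheal pair was.

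Mycl was lower with Cre in club, basal and mixed BASC organoids, the last from 164 to 51.7 CPM, and higher in AT2 organoids, from 3.24 to 7.59 CPM (log2 -0.28, 95% interval -1.37 to 0.82, edgeR adjusted p = 0.994). In the mixed BASC pair markers of several cell types also differed, with Sftpc at 96.5 CPM without and 669 CPM with Cre, the ciliated cell gene Foxj1 at 491 and 138 CPM and Krt5 at 1650 and 1020 CPM. The part of these markers in the values of Mycn and Mycl was not tested. Myc was nearly level in the tracheal pairs, lower with Cre in AT2 organoids (17.9 and 14.6 CPM) and higher with Cre in mixed BASC organoids (48.6 and 70.2 CPM), for a log2 fold change of 0.03 (95% interval -0.32 to 0.37). Mxd1 was higher with Cre in 3 of 4 pairs (log2 0.32, unadjusted p = 0.0499, edgeR adjusted p = 0.994), and Mlx was lower in 3 of 4 (log2 -0.23). Intervals for Max, Mxd4 and Mxi1 lay within -0.20 and 0.28.

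The comparison of tumoroids with organoids asked what changes with growth as a tumor in the mouse, and set the 7 tumoroids from transplants against the 4 distal Ad-Cre cultures. Mxd3 was the only member called, in a comparison that called 19.6% of 16139 genes. Mxd3 stood at 3.70, 7.47 and 8.95 CPM in AT2 tumoroids, 4.77, 8.67 and 4.96 CPM in mixed BASC tumoroids and 5.68 CPM in the bronchiolar one. The organoids had 1.49 CPM (AT2), 2.37 CPM (mixed BASC), 1.62 CPM (alveolar BASC) and 1.07 CPM (bronchiolar BASC). No tumoroid overlapped with an organoid. The mean rose from 1.64 ± 0.543 CPM (SD, n = 4) to 6.31 ± 2.05 CPM (SD, n = 7), and the fitted difference was 3.97-fold (log2 1.99, SE 0.346, edgeR adjusted p = 0.00378). It was called in all 18 alternative fits, with the log2 fold change between 1.82 and 2.21 when single cultures were left out.

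Proliferation genes moved along the same comparison, with 14 of 14 called higher in the tumoroids, where 19.6% of all genes were called. Their summed level was 794 to 1470 CPM in the tumoroids against 306 to 540 CPM in the organoids. Plk1, a mitotic kinase, had a log2 fold change of 2.35 (edgeR adjusted p = 0.000341) and Aurkb, of the chromosomal passenger complex, of 1.98 (0.00212). Over the 18 cultures, the genes whose log2 CPM was most like that of Mxd3 among 10297 genes were Ccnb2 (Pearson r = 0.935), Birc5 (0.933) and Kif18b (0.931), a mitotic cyclin, survivin and a mitotic kinesin. The 18 cultures share lineage and platform groups, so these coefficients are descriptions. The part of proliferation in the higher Mxd3 was not tested. Prelid1, whose exons overlap 105 bases of Mxd3, was at 138 to 324 CPM over the 18 cultures, and its part was not tested either.

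Myc was at 51.5 to 136 CPM (median 76.3) in the 7 tumoroids and at 14.6, 17.6, 70.2 and 85.7 CPM in the distal Ad-Cre cultures, and the groups overlapped (log2 0.93, 95% interval -0.17 to 2.03, edgeR adjusted p = 0.214). The organoid side of this comparison joins the 2 alveolar cultures, low in Myc, with the mixed and bronchiolar ones. When the 6 AT2 and mixed BASC tumoroids, all with Sftpc at 9480 CPM or more, were set against the AT2 and alveolar BASC Ad-Cre organoids alone, Myc was higher with a log2 fold change of 2.31 (edgeR adjusted p = 0.0135). The ratio of mean CPM was then 4.86, and the tumoroids (51.5 to 127 CPM) did not overlap with the organoids (14.6 and 17.6 CPM). That comparison called 9.16% of 16796 genes, Myc and Mxd3 (2.07, adjusted p = 0.0292) among them, and none of the other 8 members. It leaves out mixed BASC Ad-Cre organoids, the population of the mixed BASC tumoroids before transplantation, which had Myc at 70.2 CPM. The mixed BASC tumoroids, at 76.3, 51.5 and 127 CPM, lay on either side of that value. AT2 tumoroids had 57.2 to 93.1 CPM beside 14.6 CPM in AT2 Ad-Cre organoids.

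Mycn was not called (log2 1.62, 95% interval -0.36 to 3.59, edgeR adjusted p = 0.231), with tumoroids on either side of the 2.18 to 7.84 CPM of the organoids. Mycl (-0.47, adjusted p = 0.649) and Mxd4 (0.15, adjusted p = 0.788) took the opposite sign in the fit of 6 tumoroids against 2 alveolar organoids, at 0.55 and -0.27, and neither passed there. Max had 63.1 to 97.4 CPM in the tumoroids and 49.6 to 70.7 CPM in the organoids (log2 0.43, 95% interval 0.09 to 0.77, edgeR adjusted p = 0.0714). It passed with DESeq2 (adjusted p = 0.0254), with the autochthonous tumoroid added (0.0479) and without the bronchiolar tumoroid (0.0329). Mnt (0.35, adjusted p = 0.168), Mxd1 (-0.31, 0.26) and Mxi1 (-0.22, 0.627) were not called, and Mlx had an interval of -0.41 to 0.47. Fibroblast marker sums were 538 to 10300 CPM in the tumoroids and 3190 to 7400 CPM in the organoids.

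Between AT2 and mixed BASC tumoroids, 3 of each, none of the members passed. Over 15470 genes edgeR called 0 genes (0%), with 144 at an unadjusted p below 0.05 and 7 called by DESeq2. Mycl showed the largest difference of the members, at 6.48 to 10.9 CPM in AT2 and 9.14 to 28.4 CPM in mixed BASC tumoroids, with overlap of the groups (log2 -1.44, 95% interval -2.67 to -0.20, edgeR adjusted p = 1). For Myc (-0.25, 95% interval -1.14 to 0.65) and Mycn (-0.70, 95% interval -3.46 to 2.05) the intervals reached far in both directions. The single bronchiolar tumoroid had the highest Myc (136 CPM), Mycl (45.9 CPM) and Mxi1 (134 CPM) of the 7 tumoroids from transplants. It had the lowest Max (63.1 CPM), Mxd4 (61.1 CPM) and Mlx (25.0 CPM) of them, and was not tested as a group of 1. The share of all genes for which it was highest or lowest was not counted.

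Genes that MYC is known to activate were followed as a list of 47. Against tracheal organoids, 6 were called higher and 29 lower in alveolar organoids, where 60.9% of all genes were called, with a median log2 fold change of -0.43 beside -0.06 over all genes. Shmt2, of mitochondrial one-carbon metabolism, was lower (log2 -1.33, edgeR adjusted p = 6.78e-06), whereas the transferrin receptor Tfrc was higher (1.73, 1.24e-05). In mixed and bronchiolar BASC against alveolar organoids 34 were called higher and 4 lower (53.1% of all genes called, median 0.53 beside 0.05 over all genes), with Ccnd2 at 1.2 (edgeR adjusted p = 0.000371) and Prdx4 at -1.08 (0.000659). Against the trachea only Tfrc was called in these BASC cultures (0.76, edgeR adjusted p = 0.0457). Summed levels of the 47 genes overlapped between the lineages. They were 5200 to 6230 CPM in alveolar, 5750 to 6590 CPM in tracheal and 6120 to 6930 CPM in mixed and bronchiolar BASC organoids.

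In the tumoroids 15 of the 47 targets were called higher than in the distal Ad-Cre organoids and 0 lower, where 19.6% of all genes were called, with a median of 0.53 beside 0.00 over all genes. Cad, which starts pyrimidine synthesis, was at 1.90 (edgeR adjusted p = 0.00363) and Cdca7 at 1.63 (0.00908). The summed target level was 7840 to 9120 CPM in the 7 tumoroids, 5200 to 6930 CPM in the 10 organoids and 5960 CPM in the autochthonous tumoroid. The autochthonous culture thus had Myc above most tumoroids from transplants with a target sum inside the organoid range. No target was called between the viruses or between the tumoroid origins. The genes most like Myc in log2 CPM over the 18 cultures were Nop56 (r = 0.925), a box C/D small nucleolar ribonucleoprotein subunit, Tbl3 (0.905), of the small subunit processome, and Gadd45b (0.903), a stress response gene.

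Cofactors of the network and genes of MYC stability were followed in the same way, and their counts stand beside 60.9% of all genes called between alveolar and tracheal organoids, 53.1% between BASC and alveolar organoids and 19.6% between tumoroids and organoids. Of 14 coactivators, 10 were called lower and 0 higher in alveolar than in tracheal organoids, led by the AAA+ ATPases Ruvbl2 (log2 -1.74, edgeR adjusted p = 0.00027) and Ruvbl1 (-1.69, 0.00126). In mixed and bronchiolar BASC against alveolar organoids 8 of 14 were called higher and 0 lower, and in the tumoroids 3 were called higher, among them the acetyltransferase gene Kat2a (0.81, edgeR adjusted p = 0.00475) and Actl6a (0.60, 0.0134). Of 8 SIN3 and NCOR corepressor genes, which serve the MXD proteins, 2 were higher and 4 lower in alveolar than in tracheal organoids, with Sap30 at -1.90 (edgeR adjusted p = 3.98e-05) and Sin3b at -0.63 (2.38e-05). In BASC against alveolar organoids 4 were higher and 2 lower, and 0 of 8 were called in the tumoroids.

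Of 13 genes that control the stability of MYC proteins, 3 were higher and 4 lower in alveolar than in tracheal organoids. Ppp2r5a, a regulatory subunit of the phosphatase PP2A, was higher (log2 1.45, edgeR adjusted p = 1.7e-06) and Aurka, the kinase that stabilizes MYCN, lower (-1.15, 0.00543). Both ran the other way in BASC against alveolar organoids, at -1.54 and 0.93, where 4 of the 13 were called higher and 3 lower. In the tumoroids 5 were called higher and 0 lower, with Aurka at 2.01 (edgeR adjusted p = 0.00227) and the ubiquitin ligase gene Skp2 at 1.3 (0.0235). Aurka is also a mitotic gene.

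Of the wider network, Mga, a MAX-binding repressor, was higher in alveolar than in tracheal organoids (log2 0.29, edgeR adjusted p = 0.0482) and was lower in the tumoroids than in the distal Ad-Cre organoids (-0.84, 0.00409), at mean levels of 44.3 and 79.3 CPM. Mlxip, the MLX partner also called MondoA, was lower in alveolar organoids (-0.43, 0.0474), and Mlxipl had a mean of at most 1.33 CPM in the groups compared. Of the 2 genes known as MLXIP and MLX targets, Txnip was higher (0.90, edgeR adjusted p = 0.000718) and Arrdc4 lower (-0.82, 0.000449) in alveolar than in tracheal organoids, and the signs were reversed in BASC against alveolar organoids (-1.33 and 0.95). In the tumoroids Arrdc4 was lower (-1.08, edgeR adjusted p = 0.0485) and Txnip was not called (-0.14, 0.831).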

How the data were processed

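The authors trimmed reads with Trimmomatic 0.39 and estimated gene levels with STAR 2.6.1d and RSEM 1.3.2 on GRCm38 (names and versions from the submitters' processing notes). Per sample the authors deposited RSEM's expected count, not normalized between samples, and TPM, scaled by transcript length and library. Reads of the human transgene were not analysed here.

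Of 46603 genes, 46091 were matched to symbols and positions in GENCODE vM21. Expected counts were rounded and tested in R 4.3.3 with edgeR 4.0.16 (filterByExpr, TMM, quasi-likelihood test, Benjamini-Hochberg adjustment over all genes tested, threshold 0.05), and the pipeline was tested on simulated data. All adjusted p-values are from this test unless DESeq2 1.42.0 is named. TPM was used between genes, for sums and ratios of several genes in each culture, and to check the direction of differences in member means. It carries no TMM scaling between cultures.

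The members, lists, tests and alternatives were chosen with earlier results of these data known. Named genes were the members, the 2 largest called changes per list and comparison, and the 3 genes most correlated with Myc, Mycl, Mxd3 and Mxd4 (mean log2 CPM of at least 3). Values of further genes (Mlxip, Mlxipl, Txnip and lineage markers) were given after they were seen. Alternatives were DESeq2, its size factors, other filters, a virus covariate, no block, subsets of samples and leaving out each sample.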

Additional observations from a re-analysis of the deposited data

Results flagged for a closer look

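In 4 of the 50 groups of 4 to 10 cultures checked, 1 culture stood far from the others, and chance alone flags about 1 group in 20. Mycn in club Ad-Cre organoids, at 0.169 CPM, was below the 0.236 to 0.241 CPM of the other tracheal cultures, a difference of a few counts. The other 3 are AT2 cultures among matched populations of another lineage: Mxd4 in AT2 Ad-Cre organoids (139 CPM, others 38.8 to 50.4 CPM), Mycn in AT2 Ad-GFP organoids (3.24 CPM, others 0.195 to 0.241 CPM) and Mlx in AT2 Ad-GFP organoids (53.5 CPM, others 28.6 to 31.0 CPM).

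The difference between Ad-Cre and Ad-GFP organoids had opposite signs in the distal and tracheal pairs for 2 members. The mean distal difference exceeded the mean tracheal one by 2.23 on the log2 scale for Mycn and by 0.218 for Mxd4. Some of these pairs were nearly level. The log2 difference was -0.0019 for Mycn in basal organoids, and for Mxd4 -0.0372 in basal and 0.0332 in mixed BASC organoids. Tracheal Mycn rested on 6 to 13 counts. The contrast of distal with tracheal pairs was not tested, and each side holds 2 pairs.

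The autochthonous tumoroid, which entered no main comparison, was above all 4 Ad-GFP cultures for Myc (101 CPM, highest Ad-GFP 60.7 CPM), Mycn (11.6, 3.24), Max (91.8, 63.7), Mxd3 (4.14, 3.37), Mxd4 (175, 120) and Mnt (72.7, 65.5). Of these genes only Mxd4 was also above the 7 tumoroids from transplants (61.1 to 141 CPM). For Myc, Mycn, Max, Mxd3 and Mnt it lay inside their range. Mxi1, at 39.3 CPM, was below all 4 Ad-GFP cultures (57.6 to 126 CPM) and all 7 tumoroids from transplants (42.9 to 134 CPM). The share of all genes above or below every Ad-GFP culture was not counted. The autochthonous tumoroid was sequenced on another platform than the Ad-GFP cultures, which cannot be told apart from its origin.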

How the results depend on the processing

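Over the 10 members and 6 comparisons, 498 of 550 values kept their direction and side of the threshold in fits that left out 1 culture, as did 349 of 366 under the other alternatives. The sign reversed in 38 and 11 of these, 0 of them for a called member. Calls of Myc, Mycl, Max, Mxd4, Mxi1 and Mlx between lineages held in all 16 alternatives each, and no scaling moved the median of all genes by over 0.1. In TPM, 3 of the 60 differences in member means changed sign, 0 of them among the 17 called.

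Mixed and bronchiolar BASC against tracheal organoids gave 272 called genes, 1344 with DESeq2, 120 with the virus as a covariate, 61 with only these lineages, and 1 (without basal Ad-GFP) to 3929 (without mixed BASC Ad-GFP) when 1 culture was left out. DESeq2 called 5 genes between viruses and 7 between tumoroid origins, where edgeR called 0. Tumoroids against organoids gave 3167 calls, 1538 for the 6 AT2 and mixed BASC tumoroids against the 2 alveolar Ad-Cre organoids, and 1973 (without bronchiolar BASC Ad-Cre) to 3716 when 1 culture was left out. The cause was not tested.

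In tracheal pairs alone the virus difference was -0.0549 for Myc and -0.20 for Mycn. With 6 tumoroids against 2 alveolar organoids the difference was 0.55 for Mycl, -0.27 for Mxd4 and -0.18 for Mlx. With tumoroids of 1 title number and origin summed, the difference in origin was -0.0235 for Max and -0.0312 for Mnt. When 1 culture was left out, the virus difference ranged from -0.13 to 0.15 for Myc and from -0.71 to 0.19 for Mycl, the tumoroid difference from -0.82 to 0.0152 for Mycl and from -0.0572 to 0.452 for Mxd4, and the difference in origin from -0.50 to 0.16 for Myc and from -1.48 to 0.49 for Mycn. Mycn in the trachea rested on 6 to 13 counts, so its folds there carry the largest counting error.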

Other observations

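The genes whose log2 CPM over the 18 cultures was most like that of Mycl, among 10297 genes, were Gsto1 (Pearson r = 0.954), a glutathione transferase gene, Ift43 (0.948), of the intraflagellar transport complex that builds cilia, and Rapgefl1 (0.948). Those most like Mxd4 were Ggcx (0.968), the vitamin K-dependent carboxylase, Tmem110 (0.965) and Dapk1 (0.963), a death-associated kinase. These coefficients describe cultures that fall into lineage groups, and no test was made of them. The ciliated cell gene Foxj1 was at 255 to 298 CPM in the tracheal organoids and at 1.38 to 20.8 CPM in the alveolar ones. In the bronchiolar tumoroid Foxj1 was at 222 CPM and Scgb1a1 at 2370 CPM, beside 1.07 to 17.3 CPM and 0.311 to 736 CPM in the 6 AT2 and mixed BASC tumoroids.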
